A study of Mus musculus with 2 samples.

Results

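Necroptosis and death receptor signalling were followed through 7 genes, Ripk3, Ripk1, Mlkl, Casp8, Fadd, Cflar and Fas, out of 35976 gene rows in the deposited counts. They were chosen by name, and the set was picked because Ripk3 was lower in one group of hosts, so the Ripk3 difference between the groups is described here and supports nothing. All 7 had a row, and 6 of them reached 5 CPM (reads of the gene scaled to a total of 1000000 reads) in either group and are called measured, as were 9764 genes in all. Mlkl did not reach that level.

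The cells were splenic OTII CD4 T cells, which carry a transgenic T cell receptor for an ovalbumin peptide, recovered from host mice on day 7 after CAS, an abbreviation that the labels leave unexplained, and a second priming. One group was a pool from 3 hosts that carry floxed Il13ra1 together with CD11c-Cre, which acts mainly in dendritic cells (IL13Ra1f/f, CD11cCre/+, called deleted hosts). The other was a pool from 2 C57BL/6 hosts (control hosts), for which no Cre or floxed allele is given, so the receptor gene was targeted in the host and not in the transferred cells. Viable V beta 5.1/5.2 positive CD4 cells were sorted into wells and read by SmartSeq2, a full-length method that counts reads without molecular identifiers. No congenic marker is named, so host CD4 cells could pass the same gate. The question was whether sensing of IL-13 by dendritic cells matters for how T follicular helper cells form. Host ages are not given here.

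Each pool filled 368 wells on 4 plates. Deleted hosts gave 542650671 reads in genes (125197307 to 143937319 on a plate), and the median cell had 1499762. Control hosts gave 573105030 reads (137968663 to 148025125 on a plate), and the median cell had 1592794. Each group is 1 pooled sample, so the differences have no replicate check and no test or p-value is given. Plates are technical splits of the same animals, and no plate held cells of both pools, so plate and pool cannot be told apart. One well of deleted plate 4 held 9905 reads, so that 1 read of a gene made 101 CPM there and the well passed as positive for 6 of the 7 genes. Shares of cells are therefore given without it, over 367 cells in deleted hosts and 368 in control hosts. The CD4 T cell markers were present, with 8 of 8 measured and sums of 7096 CPM in deleted hosts (plates 6743 to 7887) and 6943 CPM in control hosts (plates 6719 to 7399).

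Death receptors such as Fas are surface proteins of the TNF receptor family. When bound by ligand, Fas recruits the adaptor FADD, which in turn recruits caspase-8, the protease that starts apoptosis, while cFLIP, the product of Cflar, is a caspase-8 relative that pairs with it and limits its activity. RIPK1 is a kinase and scaffold of the TNF receptor complex. Where caspase-8 is inactive, RIPK1 can assemble with the kinase RIPK3, which phosphorylates MLKL, and MLKL then breaches the plasma membrane in the form of cell death called necroptosis. In T cells, Fas can take part in the removal of activated cells, and mouse T cells that lack Fadd or Casp8 die by a route that needs RIPK3.

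The difference between the pools was in Ripk3, the kinase at the core of necroptosis, at 49.6 CPM in deleted hosts and 122.9 CPM in control hosts. The other 5 measured genes lay within 2-fold, and the plates of the pools overlapped for each of them. Mlkl, the effector that RIPK3 acts on, was barely read in either pool. Of the 6 measured genes, 1 was lower by 2-fold or more in deleted hosts and 0 were higher by that much, beside 6.71% and 5.98% of all measured genes. The median log2 ratio of the 6 genes, deleted over control hosts, was 0.06, beside -0.04 over all measured genes. All log2 ratios are of CPM + 1, which understates folds of low genes.

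Ripk3 (chromosome 14, 55784995 to 55788857, minus strand, GRCm38.p6) and Mlkl (chromosome 8, 111311255 to 111338479, minus strand) are the members at the extremes of these data, one the gene that differed and the other the gene that was nearly unread. Their RefSeq promoter windows, from 250 bases before to 50 bases after a transcript start, are shown for that reason, 5′ to 3′ on the gene's strand. The Ripk3 window is chr14:55788808-55789107 and the Mlkl window chr8:111338156-111338455. The Ripk3 window lies around the outer end of the gene, while the Mlkl window lies around a transcript start 274 bases inside it, at position 111338205. Capitals mark the match to a searched motif.
Ripk3: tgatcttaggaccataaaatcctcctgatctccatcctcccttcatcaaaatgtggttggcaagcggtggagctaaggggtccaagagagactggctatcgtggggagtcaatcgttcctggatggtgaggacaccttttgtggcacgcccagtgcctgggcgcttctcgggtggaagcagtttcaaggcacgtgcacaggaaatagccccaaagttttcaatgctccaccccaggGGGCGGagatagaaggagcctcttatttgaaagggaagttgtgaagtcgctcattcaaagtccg
Mlkl: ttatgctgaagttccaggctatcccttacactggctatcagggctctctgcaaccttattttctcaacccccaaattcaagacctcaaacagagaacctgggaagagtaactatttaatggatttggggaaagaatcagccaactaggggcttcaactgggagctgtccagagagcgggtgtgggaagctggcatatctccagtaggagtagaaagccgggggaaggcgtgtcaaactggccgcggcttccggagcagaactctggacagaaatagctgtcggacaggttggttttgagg
Both strands of each window were searched for a STAT6 motif (TTCNNNNGAA), an AP-1 motif (TGANTCA), a GC box (GGGCGG) and an EGR motif (GCGNGGGCG), all chosen with the data at hand. The Ripk3 window held 1 GC box, 14 bases before the start, as 35.7% of 32851 RefSeq windows of 300 bases held at least 1, and none of the other 3 motifs, which 6.95%, 7.81% and 5.55% of windows hold. The Mlkl window held none of the 4. The Ripk3 window had 10 CpG dinucleotides, more than 56.5% of windows, and the Mlkl window had 7, the median of all windows. The assay measured RNA only, so a match is a description of these letters.

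**Figure D1:**
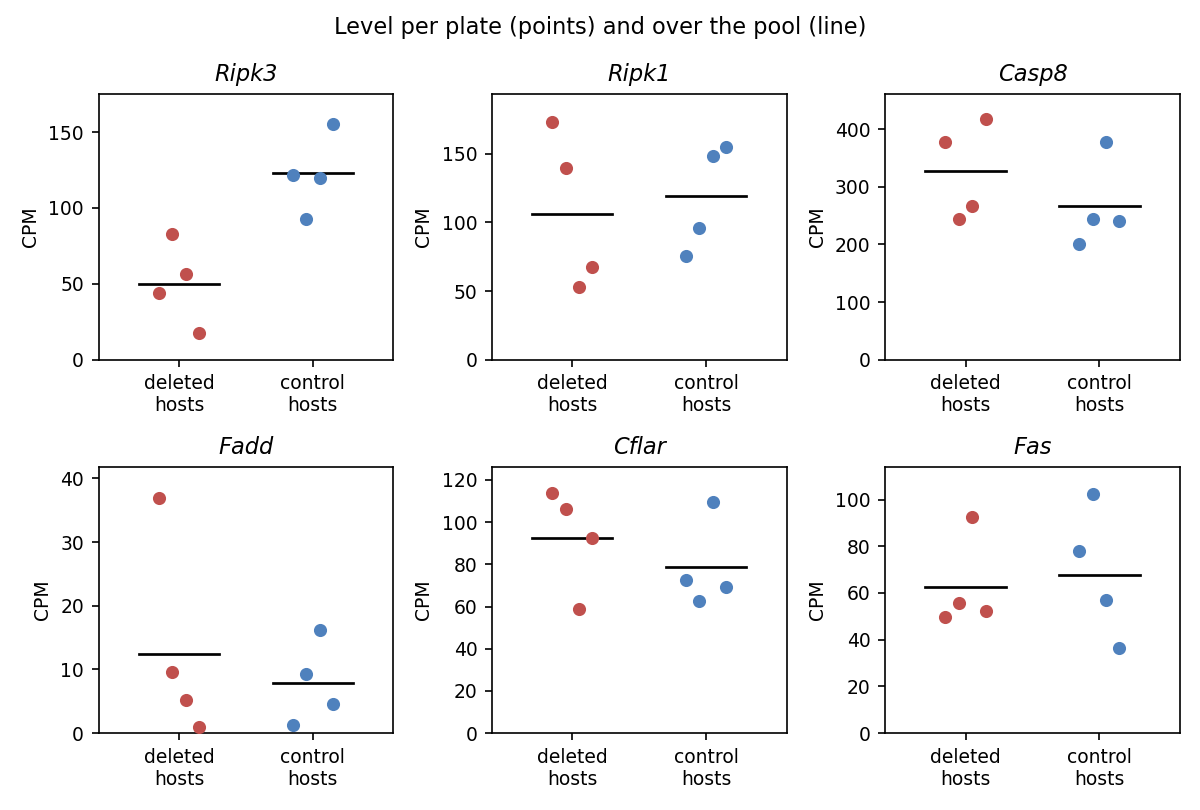
CPM of the 6 measured members in each of the 4 plates per pool (points, deleted hosts left and control hosts right), with the value over the whole pool as a line. For Ripk3 the highest deleted plate (82.6 CPM) lies under the lowest control plate (92.9 CPM), while for the other 5 genes the plates of the pools overlap.

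Fas, the death receptor itself (chromosome 19, 34290647 to 34327775), was at 62.7 CPM in deleted hosts and 67.8 CPM in control hosts. Deleted plates held 49.6, 55.8, 92.4 and 52.2 CPM and control plates 77.9, 102.2, 56.9 and 36.6 CPM. The pools overlapped, with the highest and the lowest plate both in control hosts, and the log2 ratio was -0.11. Fas was positive in 43 of 367 cells in deleted hosts (11.7%, exact 95% interval 8.61 to 15.5%) and in 47 of 368 cells in control hosts (12.8%, 9.54 to 16.6%). A cell counts as positive for a gene if it has no less than 10 CPM of it and no less than 5% of its mean on that plate, and the intervals cover the counting error of cells only. Among positive cells the median Fas level was 391.6 CPM in deleted hosts and 464.6 CPM in control hosts.

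Fadd, the adaptor between Fas and caspase-8 (chromosome 7, 144578323 to 144582441), was at 12.5 CPM in deleted hosts and 7.81 CPM in control hosts. Its deleted plates held 36.9, 9.54, 5.23 and 1.0 CPM and its control plates 1.23, 9.29, 16.3 and 4.65 CPM. Deleted plate 1 stood above all others and the rest overlapped. The log2 ratio of 0.61 was -0.51 without deleted plate 1, 1.17 without control plate 3 and 1.001 without deleted plate 4, so 1 plate sets its direction. Only 13 deleted-host cells (3.54%, 1.90 to 5.98%) and 18 control-host cells (4.89%, 2.92 to 7.62%) were positive, and 1 cell held 30.6% of all Fadd reads in deleted hosts and 20.3% in control hosts.

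Casp8, the initiator caspase that also restrains necroptosis (chromosome 1, 58795233 to 58847503), was positive in more cells than any other member. It was at 326.5 CPM in deleted hosts and 266.0 CPM in control hosts, a log2 ratio of 0.29. Deleted plates held 377.5, 243.7, 267.3 and 416.6 CPM and control plates 200.5, 244.5, 378.1 and 241.2 CPM, so the highest plate was a deleted one and the lowest a control one, with overlap between them. Casp8 was positive in 115 cells in deleted hosts (31.3%, 26.6 to 36.4%) and 103 cells in control hosts (27.99%, 23.5 to 32.9%).

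Cflar, which encodes cFLIP (chromosome 1, 58711311 to 58758884, beside Casp8), was at 92.3 CPM in deleted hosts and 78.6 CPM in control hosts. Deleted plates held 114.0, 106.2, 58.9 and 92.7 CPM and control plates 72.8, 62.6, 109.4 and 69.5 CPM. The pools overlapped, with a log2 ratio of 0.23. Fewer cells but a higher level per positive cell made up the deleted-host value, with 77 positive cells (20.98%, 16.9 to 25.5%) at a median of 307.4 CPM, against 90 control-host cells (24.5%, 20.2 to 29.2%) at a median of 173.8 CPM. The middle ranges of these levels, from the lower to the upper quartile, overlapped, at 104.0 to 627.2 CPM in deleted hosts and 68.2 to 338.2 CPM in control hosts.

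Ripk1, the kinase that stands between the TNF receptor complex and both forms of death (chromosome 13, 34002225 to 34035170), was at 106.1 CPM in deleted hosts and 119.3 CPM in control hosts. Deleted plates held 173.6, 139.4, 52.6 and 67.4 CPM and control plates 75.9, 95.8, 148.4 and 155.2 CPM. Deleted plates included both the highest and the 2 lowest values, and the log2 ratio was -0.17. It was positive in 39 cells in deleted hosts (10.6%, 7.67 to 14.2%) and 48 cells in control hosts (13.04%, 9.78 to 16.9%), at a median of 817.9 CPM in deleted hosts and 812.1 CPM in control hosts. The span of Ripk1 overlaps that of Serpinb6a on the opposite strand (36.1 CPM in deleted and 30.9 CPM in control hosts). Without a stated strand setting, reads from any exon stretch that both share could not be told apart. Whether their exons overlap was not checked.

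Ripk3 was at 49.6 CPM in deleted hosts (exact Poisson 95% interval of the reads 49.0 to 50.2) and 122.9 CPM in control hosts (122.0 to 123.8), a log2 ratio of -1.29 or 2.45-fold lower. Deleted plates held 43.7, 82.6, 56.1 and 17.5 CPM and control plates 121.6, 92.9, 119.6 and 155.5 CPM. Every deleted plate lay below every control plate, as it did for 2.6% of all measured genes, and 1.81% had the opposite order. Without deleted plate 4, the lowest, the log2 ratio was -0.99, just under 2-fold. Of all 9764 measured genes, 104 were at least 2-fold lower with plates apart, as were 6 of the 2166 genes at 100 CPM or more in control hosts. Ripk3 is in both counts, a grouping made with these values in view. The cutoff uses the pool where Ripk3 is high and the contrast is the one that chose the set, so these counts support nothing. In pooled cells, fewer cells that express a gene and less RNA per cell cannot be told apart from a level, and since a cell with few transcripts may give no read, a count of positive cells does not settle this.

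Ripk3 differed in the number of positive cells, with similar levels in those cells. Positive were 26 of 367 cells in deleted hosts (7.08%, 4.68 to 10.2%) and 59 of 368 cells in control hosts (16.03%, 12.4 to 20.2%), so the share in control hosts was 2.26 times that in deleted hosts. By plate there were 6, 11, 7 and 2 positive cells in deleted hosts and 16, 15, 12 and 16 in control hosts, without overlap. The same order of positive cells was not counted over all genes. These cells held 99.22% of Ripk3 reads in deleted hosts and 99.69% in control hosts. The counts are therefore not separate from the plate levels, and they belong to the contrast that chose the set. The median level in positive cells was 737.4 CPM in deleted hosts (quartiles 449.4 and 879.2) and 658.7 CPM in control hosts (quartiles 427.4 and 989.6), and the means were 698.9 CPM in deleted hosts and 726.3 CPM in control hosts. With every cell thinned to 500000 reads, leaving out 4 shallower cells in deleted and 2 in control hosts, 25 of 364 cells in deleted hosts (6.87%) and 59 of 366 cells in control hosts (16.1%) had 5 reads or more. Positive cells also had more genes at 5 reads or more, with medians of 1747 against 1535 in other cells of deleted hosts and 1695 against 1554 in other cells of control hosts.

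**Figure D2:**
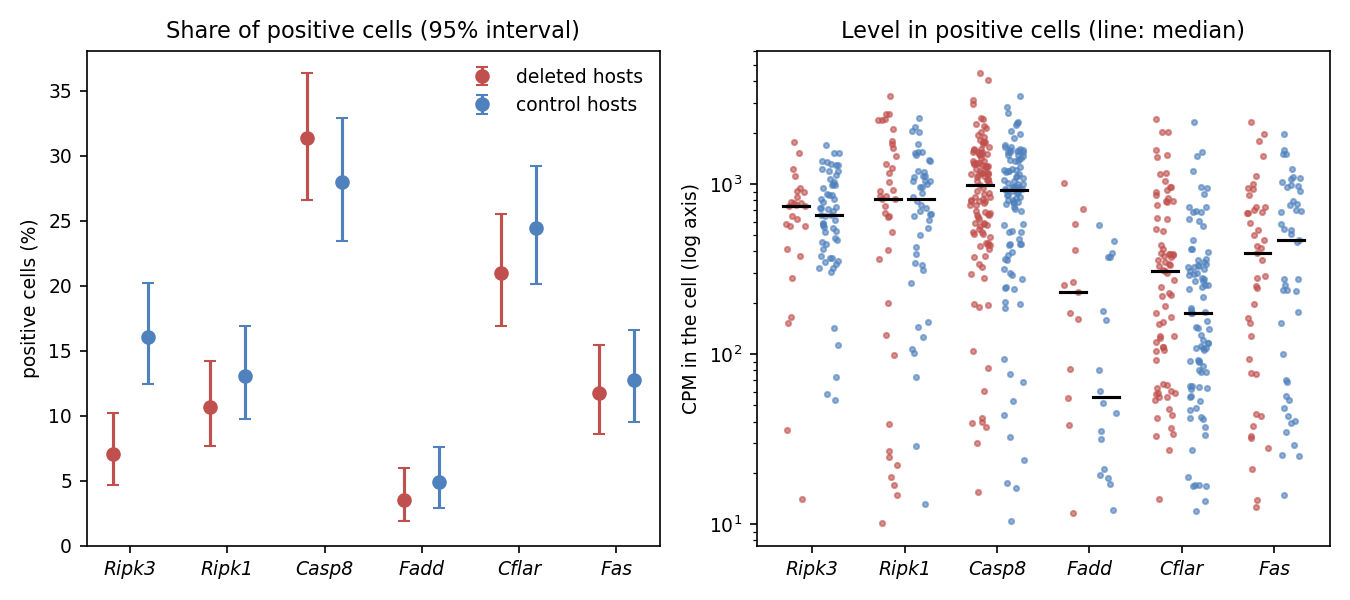
Left, share of cells positive for each measured member with exact 95% intervals, and right, the level in each positive cell (points, log axis) with the median as a line, deleted hosts to the left of control hosts. The Ripk3 shares are 7.08% in deleted hosts and 16.03% in control hosts, while its levels in positive cells cover overlapping ranges.

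Mlkl, the effector of necroptosis, had 14 reads in all deleted-host cells (0.0258 CPM, 0.0141 to 0.0433) and 10 reads in all control-host cells (0.0174 CPM, 0.00837 to 0.0321). Each of these reads was in a different cell. No cell was positive, 0 of 368 wells in each pool with the well of few reads included, which allows a share of up to 0.815% by a limit of 3 cells and up to 0.997% by the exact interval. The deposited tables also hold wells that are not named by position alone, 10 ending in mBM100, 13 in mBM10 and 9 in noinput or dw, and the labels do not explain the first 2 names. In the mBM100 wells Mlkl was at 24.5 CPM (251 reads, 21.6 to 27.7) and reached 10 CPM in 6 of 10 wells, so the Mlkl row does collect reads. The wells with noinput or dw had 0 Mlkl reads in a total of 85796, which allows up to 34.97 CPM, and at most 3 reads of any member in a well.

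Between genes, levels were compared as CPM per kilobase of exon (RPKM), with the length of all exons of a gene in the GENCODE M21 annotation. In deleted hosts the order of RPKM was Casp8 at 112.8 (plates 84.2 to 144.0), Fas at 30.4 (24.03 to 44.8), Ripk3 at 21.6 (7.62 to 36.02), Ripk1 at 12.7 (6.31 to 20.8), Cflar at 7.29 (4.65 to 8.997), Fadd at 3.20 (0.256 to 9.46) and Mlkl at 0.0112. Plates of neighbours in this order overlapped from Fas down to Fadd, and Casp8 and Mlkl stood apart. In control hosts the order was Casp8 at 91.96 (69.3 to 130.7), Ripk3 at 53.6 (40.5 to 67.8), Fas at 32.9 (17.8 to 49.6), Ripk1 at 14.3 (9.10 to 18.6), Cflar at 6.21 (4.94 to 8.63), Fadd at 2.00 (0.315 to 4.17) and Mlkl at 0.00758. There only Ripk3 with Fas and Fas with Ripk1 overlapped. Ripk3 thus stood above Fas in the control pool and below it in the deleted pool, and the other members kept their order. The exon lengths of Cflar and Ripk1 (12669 and 8344 bases) take in the exons of all annotated transcripts. A cell may not use all of them, and any unused length would lower the RPKM. Which exons were used was not tested.

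**Figure D3:**
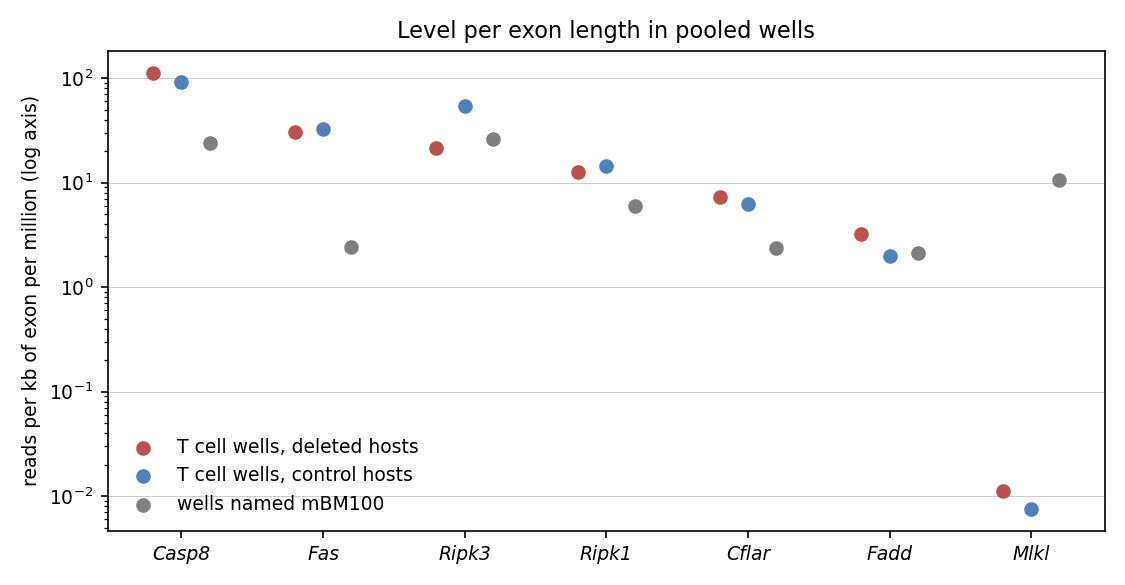
RPKM (log axis) of the 7 members in the summed T cell wells of deleted hosts and control hosts and in the wells named mBM100. Casp8 is highest and Mlkl lowest in the T cell wells, at 0.0112 RPKM in deleted hosts and 0.00758 RPKM in control hosts, while Mlkl reaches 10.6 RPKM in the mBM100 wells.

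Most cells were positive for at most 1 member. None of the 6 measured members was positive in 144 cells of deleted hosts (39.2%) and 130 cells of control hosts (35.3%), and 3 or more were positive in 9 cells of deleted hosts (2.45%) and 23 cells of control hosts (6.25%). These counts include Ripk3, whose difference between the pools chose the set, and counts without it were not made. The difference between the pools in these counts is therefore not a separate result. Across cells within a pool, Pearson's r of log2(CPM + 1) over the 15 pairs of members ran from -0.07 to 0.11 in deleted hosts and from -0.08 to 0.12 in control hosts, values that share each cell's depth and are too weak to describe a relation. Across the 8 plates, Ripk3 had r = 0.39 with Ripk1, 0.02 with Fas, -0.25 with Cflar and -0.67 with Casp8. Among 7206 genes at 20 CPM or more in either pool, the 5 with plate levels most like Ripk3 were Gpatch2 (r = 0.98), Mmab (0.96), Rnf103 (0.96), Utp6 (0.95) and Dpp7 (0.95). Of these 5, Mmab, Rnf103, Utp6 and Dpp7 reached 20 CPM in control hosts alone. All these r values run over 8 plates of 2 pools and so include the difference between the pools, which is the one that chose Ripk3. Ripk1 ranked 1536 on the same scale.

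Cells were then split by 6 genes of T cell state, which are Cd44 (a receptor raised on activated and memory cells), Cd69 and Nr4a1 (early activation genes), Tnfrsf9 (the costimulatory receptor 4-1BB), Cxcr5 (the follicle homing receptor) and Ctla4 (an inhibitory receptor). Mki67, a proliferation marker on the same list, had 4 positive cells in deleted hosts and 8 in control hosts, too few to split on. Ripk3 was positive in a smaller share of deleted-host than control-host cells on both sides of these 6 splits, in 12 of 12 subsets, at 0.224 to 0.581 times the control share. The subsets reuse the same cells, so such counts largely repeat the shares over the whole pools. For Ripk3 they repeat the contrast that chose the set. Ripk1 was also lower in 12 of 12 subsets, at 0.373 to 0.957 times the control share. Cflar was lower in 11 of 12, Fadd in 9 of 12 and Fas in 6 of 12, while Casp8 was higher in 10 of 12. The same counts over all genes were not made, so these are descriptions only.

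Within each pool, Ripk3 was positive more often in Ctla4-positive and in Cd44-positive cells, and so was the median gene. In deleted hosts 12.3% of 122 Ctla4-positive cells (7.05 to 19.5%) and 4.49% of 245 other cells (2.26 to 7.89%) were Ripk3-positive, and in control hosts 24.3% of 70 Ctla4-positive cells (14.8 to 36.01%) and 14.1% of 298 other cells (10.4 to 18.6%). The share was higher in Ctla4-positive cells on 7 of 8 plates. For Cd44 the shares in deleted hosts were 10.9% of 55 positive cells (4.11 to 22.3%, 6 cells) and 6.41% of 312 other cells (3.96 to 9.73%), and in control hosts 28.6% of 49 positive cells (16.6 to 43.3%, 14 cells) and 14.1% of 319 other cells (10.5 to 18.4%). The intervals overlapped in both pools for Ctla4 as well as for Cd44, and the share was higher in Cd44-positive cells on 6 of 8 plates. By a rule set after these values were seen, a share at least 1.5 times as high in both pools, Ripk3 was the one member called, for Ctla4 beside 4.44% and for Cd44 beside 11.4% of the 7683 genes with at least 10 positive cells in each pool. No member was called for Cd69, Nr4a1, Tnfrsf9 or Cxcr5, beside 3.02%, 1.6%, 10.9% and 10.2% of genes. Ctla4-positive cells had more genes at 5 reads or more, with medians of 1683 against 1479 in deleted hosts and 1641 against 1542 in control hosts, and Cd44-positive cells likewise, with 1786 against 1506 in deleted hosts and 1777 against 1540 in control hosts. Over the 7683 genes, the median ratio of the share in Ctla4-positive cells to that in other cells was 1.148 in deleted hosts and 1.064 in control hosts. For Cd44 this median was 1.261 in deleted hosts and 1.197 in control hosts. The part of these general shifts in the Ripk3 shares was not tested.

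Cflar was positive more often in Cd69-positive than in other cells on 8 of 8 plates, in 24.3% against 19.1% of cells in deleted hosts and 33.7% against 21.5% in control hosts, with intervals that overlapped in both pools. This pair was picked after the values were seen, as the only pair of a member and a splitting gene that reached 8 of 8 plates. Of the 7683 genes, 1% had a higher share in Cd69-positive cells on all 8 plates, a share worked out for Cd69 only. Cd69-positive cells had more genes at 5 reads or more, with medians of 1582 against 1513 in deleted hosts and 1685 against 1528 in control hosts, and the part of this was not tested. In Cd44-positive cells Fas had opposite directions in the pools, a pair named with the values in view. It was positive in 23.6% of 55 Cd44-positive cells (13.2 to 37.0%) and 9.62% of other cells in deleted hosts, and in 8.16% of 49 Cd44-positive cells (2.27 to 19.6%) and 13.5% of other cells in control hosts. These are 13 Fas-positive cells among the Cd44-positive ones in deleted hosts and 4 in control hosts, and the difference between the pools was not tested. Other pairs had opposite directions too. For Fas with Ctla4 the ratio of shares, positive over other cells, was 1.746 in deleted and 0.623 in control hosts. For Fadd with Cd44 it was 4.862 in deleted and 0.814 in control hosts. How often this occurs over all genes was not worked out.

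**Figure D4:**
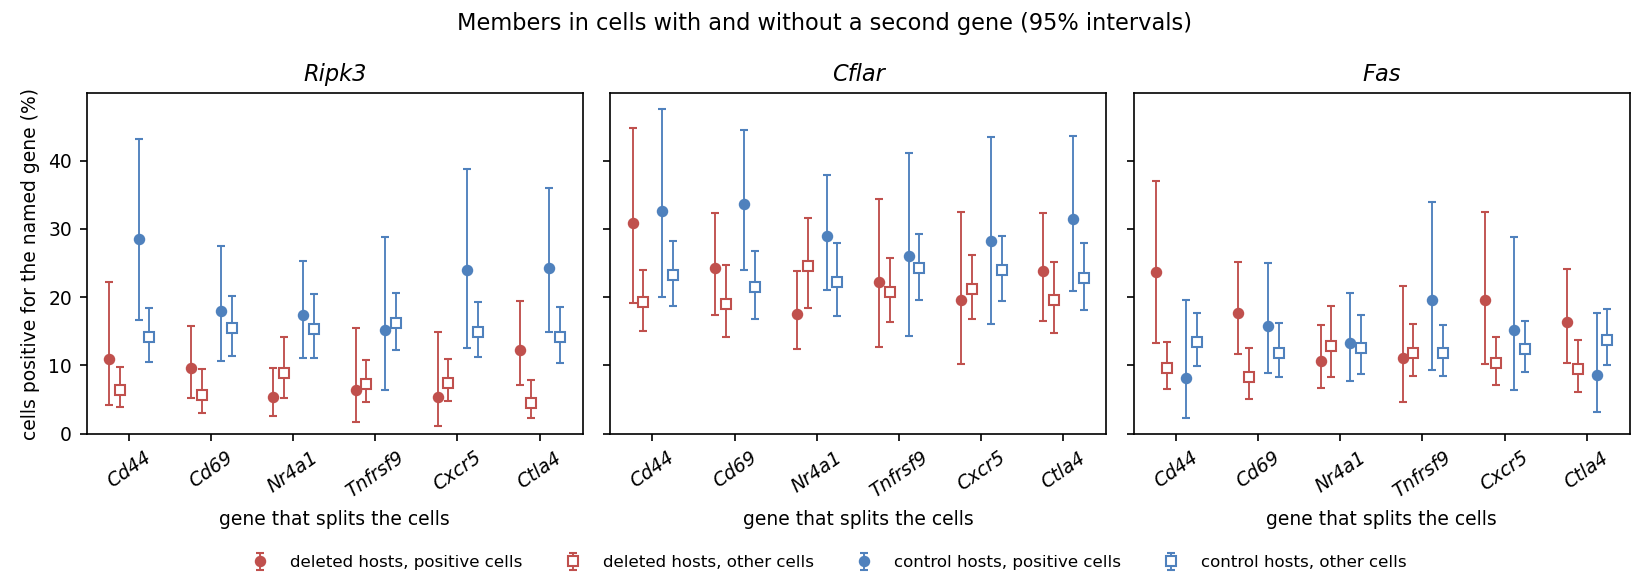
Share of cells positive for Ripk3, Cflar and Fas (percent, exact 95% intervals) among cells positive for the gene on the x axis (filled circles) and other cells (open squares), deleted hosts left of control hosts. The Ripk3 share is 12.3% in Ctla4-positive and 4.49% in other cells of deleted hosts, and 24.3% and 14.1% in those of control hosts.

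Around the members, 59 measured genes of 66 in 6 pathway lists were read in the same way. Of all measured genes, 6.71% were lower and 5.98% higher by 2-fold or more in deleted hosts. Every deleted plate lay below every control plate for 2.6% of them and above for 1.81%. Among 9 death ligands and receptors, of which 7 were measured, 1 was lower by 2-fold or more in deleted hosts and 0 were higher, with a median log2 ratio of 0.01. The lower one was Tnf, the cytokine that can start necroptosis through TNF receptor 1, at 3.75 CPM in deleted hosts and 23.6 CPM in control hosts, a log2 ratio of -2.37. Its deleted plates held 0.0879, 10.6, 4.08 and 0.243 CPM and its control plates 33.5, 6.70, 28.1 and 25.5 CPM, which overlapped at 1 plate of each pool. Without deleted plate 2 the log2 ratio was -3.30. Tnf counts as measured through control hosts alone, and was positive in 5 cells of deleted hosts and 13 cells of control hosts. Fasl, the ligand of Fas, was at 61.7 CPM in deleted hosts and 54.5 CPM in control hosts, and Tnfrsf1a, the TNF receptor with a death domain, at 27.2 CPM in deleted hosts and 34.2 CPM in control hosts, both named for their role after their values were seen.

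Of the 24 genes of the TNF receptor complex and its ubiquitin editing, all measured, 2 were at least 2-fold higher in deleted hosts and 0 lower. These counts stand beside 5.98% and 6.71% of all measured genes. The median log2 ratio of the list was -0.004. Tnfaip3, which encodes the ubiquitin-editing enzyme A20 that limits NF-kappaB signalling and restrains RIPK3, was at 512 CPM in deleted hosts (plates 383.1 to 575.6) and 137 CPM in control hosts (plates 87.9 to 235.6), with no overlap, a log2 ratio of 1.89. Plates lay apart in this direction for 1.81% of all measured genes. Tnfaip3 was positive in 181 of 367 cells in deleted hosts and 65 of 368 in control hosts. Spata2, the adaptor that brings the deubiquitinase CYLD to the complex, was at 43.7 CPM in deleted hosts and 14.4 CPM in control hosts, with overlapping plates and with 20 positive cells in deleted hosts and 9 in control hosts. Cyld itself was at 116.2 CPM in deleted and 136.9 CPM in control hosts.

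Among 9 other necroptosis genes 1 was at least 2-fold higher and 0 lower, with a median log2 ratio of 0.10. It was Ticam1, the adaptor TRIF that links Toll-like receptors to RIPK3, at 29.3 CPM in deleted hosts and 13.9 CPM in control hosts, with 10 positive cells in deleted hosts and 8 in control hosts, and the log2 ratio, 1.03 with all plates, was 0.58 without deleted plate 4. Zbp1, the nucleic acid sensor that activates RIPK3, was at 49.3 CPM in deleted hosts (plates 27.7 to 58.6) and 49.7 CPM in control hosts (plates 42.6 to 67.5), and it too was named for its role. None of the 13 measured genes for caspases and apoptosis execution was 2-fold apart, with a median log2 ratio of -0.06. The 3 with the highest CPM were Diablo at 109.3 CPM in deleted and 123.2 CPM in control hosts, Cycs (cytochrome c) at 108.1 CPM in deleted and 112.8 CPM in control hosts, and Casp2 at 93.2 CPM in deleted and 86.0 CPM in control hosts.

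Of the pyroptosis genes 4 were measured and 0 were 2-fold apart, with a median log2 ratio of -0.32. Pycard, the inflammasome adaptor ASC, was at 181 CPM in deleted hosts (plates 165.2 to 199.1) and 238 CPM in control hosts (plates 212.2 to 251.5). Its log2 ratio was -0.39 without overlap of plates, which lay apart in this direction for 2.6% of all measured genes. Gsdmd, which encodes the pore protein of pyroptosis, was at 130.8 CPM in deleted and 154.4 CPM in control hosts, and Casp1 at 48.5 CPM in deleted and 41.2 CPM in control hosts, both with overlapping plates. Of the other RIP kinases, Ripk2 was at 31.7 CPM in deleted and 29.8 CPM in control hosts, Dstyk at 9.61 CPM in deleted and 9.86 CPM in control hosts, and Ripk4 had 0 reads in both.

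**Figure D5:**
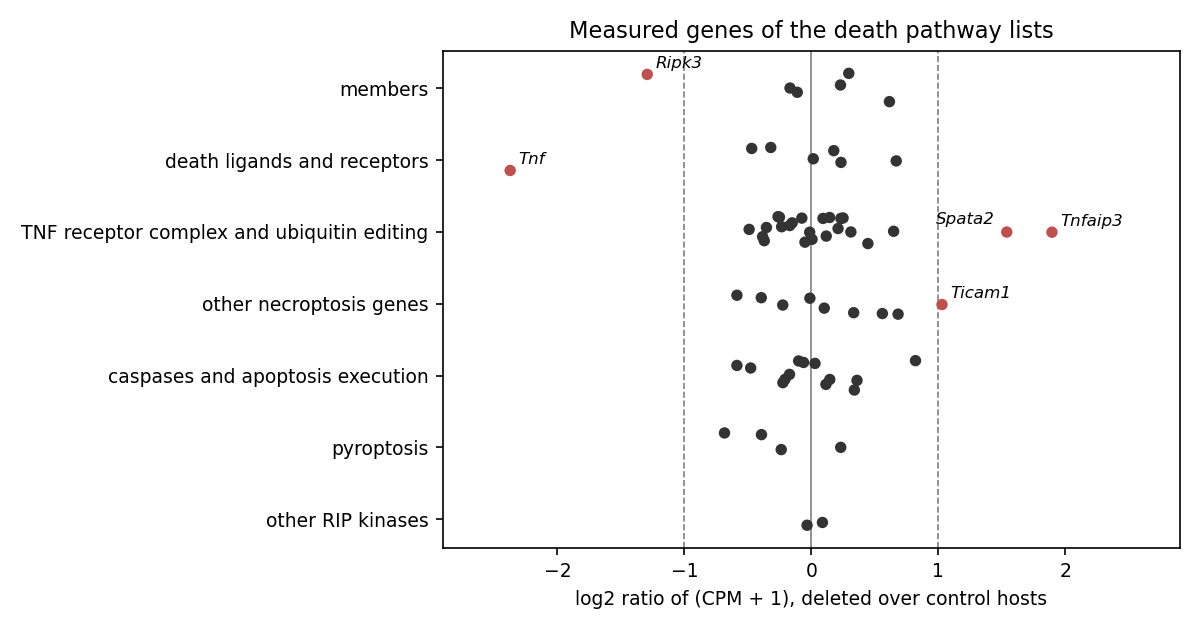
Log2 ratio of CPM + 1, deleted over control hosts, for each measured member and each measured gene of the 6 lists (points, spread vertically for sight only), with dashed lines at 2-fold. Past the lines are Ripk3 and Tnf on the lower side and Tnfaip3, Spata2 and Ticam1 on the higher side.

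B cell markers summed to 4.88 CPM in deleted hosts and 5.01 CPM in control hosts, with 0 of 5 measured and Ms4a1 at 0.0350 CPM in deleted hosts and 0.0227 CPM in control hosts. In deleted hosts, sums were 8.34 CPM for dendritic cell markers (plates 2.27 to 18.04), 22.7 CPM for macrophage or monocyte markers, 11.4 CPM for neutrophil markers and 11.9 CPM for erythroid markers. In control hosts these sums were 4.47 CPM (plates 1.37 to 8.39), 19.2 CPM, 9.51 CPM and 10.8 CPM in the same order. The 5 NK cell markers, of which 2 were measured, summed to 49.3 CPM in deleted hosts (plates 41.3 to 57.9) and 28.02 CPM in control hosts (plates 18.4 to 39.6), without overlap. One of them, Prf1 (perforin), was at 24.6 CPM in deleted hosts and 9.96 CPM in control hosts, and without its 9 positive cells in deleted hosts and 3 in control hosts Ripk3 was at 49.6 CPM in deleted hosts and 124.1 CPM in control hosts. Lyz2, a lysozyme gene of macrophages and neutrophils, was at 15.3 CPM in deleted hosts (plates 14.7 to 16.3) and 12.03 CPM in control hosts (plates 10.5 to 13.9). Its plates did not overlap, and they lay apart in this direction for 1.81% of all measured genes. Lyz2 was positive in 77.4% of cells in deleted hosts and 60.6% in control hosts. It also had 322 reads in the 9 wells named noinput or dw and 14250 CPM in the mBM100 wells, and its part in the member values was not tested. The 2 CD8 T cell markers summed to 9.47 CPM in deleted hosts (plates 0.311 to 16.1) and 26.5 CPM in control hosts (plates 13.7 to 41.7), nearly all of it Cd8b1, since Cd8a was at 0.199 CPM in deleted and 0.155 CPM in control hosts. Cd8b1, the 1 measured marker of the 2, was lower in deleted hosts as Ripk3 was, and was positive in 7 cells of deleted hosts and 16 cells of control hosts. Ripk3 was positive in 1 of these cells in deleted hosts and 3 in control hosts, and without them it was at 48.7 CPM in deleted hosts and 122.1 CPM in control hosts. The nearest protein-coding gene on each side of Ripk3 was nearly unread, with Adcy4, 899 bases away, at 0.0129 CPM in deleted and 0.0157 CPM in control hosts and Nfatc4, 34278 bases away, at 0 CPM in both. Farther genes were read, with Nop9, 29494 bases away, at 45.8 CPM in deleted and 52.5 CPM in control hosts and Dhrs1, 39304 bases away, at 24.5 CPM in deleted and 41.5 CPM in control hosts (log2 ratio -0.73), both with overlapping plates.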

How the data were processed

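SmartSeq2 libraries of single T cells were amplified with 25 PCR cycles, per the labels' protocols. The values the authors deposited are raw counts of reads by gene, one column a well, for 8 plates of 96 wells, of which 736 were cell wells and 32 control wells. Counting by featureCounts 2.0.1 on build mm10 is per the submitters' processing notes. For the aligner, annotation and strand setting, no source used here gives a name. Reads were summed per plate and pool and scaled to CPM, with a pseudocount of 1 for log2 ratios. Members and gene lists were chosen with earlier results of these data known. Of the list symbols, 3 had no row and were not analysed here. Named were the 7 members, of each list every measured gene at least 2-fold apart or else the 3 highest, the 5 genes most like Ripk3, markers, and neighbours; exceptions are stated. Some genes that this rule names are not reported here. Intervals are exact 95% Poisson intervals for reads and Clopper-Pearson intervals for cells. They cover at most counting error, not the spread between plates or animals. PCR copies count as separate reads, so the Poisson intervals are too narrow even for the counting error of molecules. No doublet caller was run on sorted wells. The scripts were tested on simulated data. Alternatives were TMM factors (edgeR 4.0.16), median of ratios (DESeq2 1.42.0, R 4.3.3), other cell filters and thresholds, and each plate left out; no model was fitted. Python 3.11.15, numpy 2.4.6, pandas 2.3.3 and scipy 1.17.1 were used. Coordinates and promoters are from RefSeq GRCm38.p6, the assembly also called mm10, and all 7 members matched.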

Additional observations from a re-analysis of the deposited data

Results flagged for a closer look

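Fas in deleted plate 3, at 92.39 CPM, stood apart from the other 3 deleted plates, with a gap to the nearest plate of 0.853 of the whole range, past Dixon's 95% limit for 4 values. Chance passes that limit in about 1 in 20 groups, and 12 groups of plates were looked at. Plates are splits of the same animals, so this is not an outlying sample. Mlkl, with 14 reads in deleted-host and 10 reads in control-host T cells, was at 24.5 CPM in the wells named mBM100 and at 3.539 CPM in the wells named mBM10, where 2 of 13 wells held all its reads. These wells entered no comparison between the pools. Mpo, a neutrophil precursor gene, was at 21500 CPM in the mBM100 wells, and Cd3e at 2.635 CPM.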

How the results depend on the processing

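With each of the 8 plates left out in turn, the Ripk3 log2 ratio ran from -1.64 to -0.99, and under the other 7 alternatives from -1.36 to -1.21. The difference in the share of Ripk3-positive cells, deleted minus control hosts, was -8.70 percentage points over all wells, -10.2 to -7.34 with a plate left out and -9.78 to -7.34 under other rules, including cells of 10000 reads or more (-8.95), an alternative chosen after seeing the data. The count of members at least 2-fold lower was 0 without deleted plate 4 and 1 with any other plate left out. The count at least 2-fold higher was 1 (Fadd) without deleted plate 4 and without control plate 3, and 0 with any other plate left out. The count of members with plates apart was 1 under every alternative run. Leaving a plate out, or changing the pseudocount or the minimum CPM, cannot make plates that lie apart overlap. Under those alternatives Ripk3 could not leave this count, so its constancy there shows nothing about Ripk3. By plate left out, log2 ratios ran from -0.47 to 0.06 for Ripk1, -0.51 to 1.17 for Fadd, -0.36 to 0.14 for Fas, 0.14 to 0.51 for Casp8 and 0.13 to 0.43 for Cflar. Scaling by TMM or median of ratios moved the median of all measured genes from -0.04 to -0.02 and -0.01. No paired analysis was possible because each group is 1 pooled sample. Depth limits Mlkl, with 14 reads in deleted and 10 reads in control hosts.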
